A study of Mus musculus with 24 samples.

Results

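The 39 genes described here respond to interferons or present antigen: the interferon-induced antiviral effectors (18 genes), the sensors, transcription factors and feedback regulators of the response (7), the interferon-inducible GTPases (5), and the genes of class I (6) and class II (3) antigen presentation. They were chosen by gene symbol, and all 39 of 39 were found among the 55797 gene names of the deposited per-sample count files. RNA-seq libraries came from liver and brain of male mice of the strain label C57/BL6 with the leptin receptor alleles db/db or db/+, which drank brazzein (3M-brazzein, an engineered sweet-tasting protein), sucrose or water, with a treatment entry of 16 weeks. Each of the 12 combinations of tissue, genotype and drink had 2 libraries, 24 in all. The db/+ mice carry 1 db allele too and are not wild type, and the region of the brain is not given in the sources used here. Genotypes were taken from the sample titles, because a separate genotype entry contradicts the title for 12 of the 24 samples. Nothing in the labels says whether liver and brain libraries came from the same mice.

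Interferons are secreted proteins that signal cells to resist infection. Type I interferons act through the receptor Ifnar1/Ifnar2 and a complex that holds Stat2 and Irf9, which binds the interferon-stimulated response element (ISRE) in the promoters of antiviral genes. Interferon gamma acts at gamma-activated sites (GAS) and raises the GTPases, the immunoproteasome and the antigen-presenting molecules. Class I molecules, made of a heavy chain and B2m, are carried by nearly all nucleated cells, whereas class II molecules are carried mainly by macrophages, dendritic cells and B cells.

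The promoters of this group were read from RefSeq (GRCm38.p6, 250 bases before to 50 after each start), where 30 of the 39 members matched by symbol, with 36 promoters between them. Oas2, H2-Ab1, Parp14, Ifi27, Iigp1, Cd74, Rtp4, Dhx58 and Usp18 were not matched. The ISRE core GAAANNGAAA was searched on both strands and lay in 16 of the 36 promoters (44.4%), those of 15 members, against 3.44% of all 32851 promoters in the table. The GAS letters TTCNNNGAA lay in 7 of the 36 (19.4%), against 8.30% of all, and CCAAT in 16 of the 36 (44.4%), against 37.4% of all. A match is a description of letters, not a shown binding site. 8 windows of 60 bases are printed as examples of the ISRE core in members of the group. All read 5′ to 3′ along the gene, with every ISRE core of the window, on either strand, in capitals.
Ifit1 (chr19:34640769-34640828, + strand): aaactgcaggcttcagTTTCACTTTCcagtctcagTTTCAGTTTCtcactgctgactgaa
Ifit3 (chr19:34583365-34583424, + strand): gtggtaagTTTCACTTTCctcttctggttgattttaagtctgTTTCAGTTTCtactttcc
Ifit3b (chr19:34607761-34607820, + strand): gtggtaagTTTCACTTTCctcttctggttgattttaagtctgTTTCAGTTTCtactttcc
Isg15 (chr4:156200856-156200915, - strand): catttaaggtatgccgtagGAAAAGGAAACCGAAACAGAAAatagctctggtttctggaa
Bst2 (chr8:71537565-71537624, - strand): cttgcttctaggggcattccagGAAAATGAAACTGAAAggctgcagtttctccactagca
Stat2 (chr10:128270251-128270310, + strand): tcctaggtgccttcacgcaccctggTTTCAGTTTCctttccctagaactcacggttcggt
Gbp2 (chr3:142620579-142620638, + strand): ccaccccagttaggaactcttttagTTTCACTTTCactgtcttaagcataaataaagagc
B2m (chr2:122147523-122147582, + strand): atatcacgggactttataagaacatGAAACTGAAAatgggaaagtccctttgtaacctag
The windows of Ifit3 and Ifit3b hold the same 60 bases, with 2 cores each, and Isg15 holds 3 overlapping cores. Ifit3 and Ifit3b also share transcript sequence: 51.2% of the 50-base stretches of Ifit3 transcripts (GENCODE vM21) occur in Ifit3b. The same holds for 57.6% of Oas1a stretches and its neighbour Oas1g, and for 12.8% of H2-D1 and 9.63% of H2-K1 stretches and any other gene, so how the estimated counts divide between these genes is uncertain.

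Liver libraries held between 60384569 and 79385804 estimated counts and brain libraries between 58287665 and 77772849. Levels are given below as CPM, the estimated counts scaled to library size, or as FPKM where genes are compared with each other. The 8 hepatocyte markers summed to 73027 to 102826 CPM in liver libraries and to 714 to 1251 CPM in brain libraries. Choroid plexus markers summed to 768 to 1332 CPM in brain libraries. In brain both sums were lowest in db/+ water replicate 1 and highest in db/db brazzein replicate 1. Whether the hepatocyte sum in brain came from liver RNA was not tested. The 6 neuron markers summed to 0.0147 to 9.84 CPM in liver libraries and to 5689 to 6039 CPM in brain libraries. Lepr, the leptin receptor gene itself, had 0.690 to 2.504 CPM in db/db livers, against 1.90 to 18.9 CPM in db/+ livers (adjusted p = 0.00788). By drink the log2 difference was -0.60 ± 0.53 on brazzein (adjusted p = 0.620), -3.02 ± 0.57 on sucrose (adjusted p = 0.0598) and -2.16 ± 0.55 on water (adjusted p = 0.0930), so Lepr did not separate the genotypes beyond error in the brazzein livers. In brain it had 2.004 to 2.77 CPM in db/db, against 3.13 to 3.87 CPM in db/+ (adjusted p = 0.157). Gene counts pool the isoforms of Lepr, so they check the labels only in part. The livers least like the others were db/db brazzein replicate 2 and db/+ brazzein replicate 1, with mean correlations of 0.884 and 0.898 with the rest.

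Most of the group was higher in liver than in brain. Over genotypes and drinks, 34 of 39 members were called higher in liver than in brain and 1 was called lower, with a median log2 difference of 2.91 (edgeR quasi-likelihood test, Benjamini-Hochberg adjusted p under 0.05, the call used throughout). Of all 25725 genes tested, 84.5% were called, 33.9% higher and 50.6% lower in liver, and their median was -0.61. All 6 class I members were called higher in liver, and so were all 3 class II members, all 7 sensors and regulators and all 5 GTPases, whereas the antiviral effectors split into 13 higher, 1 lower and 4 not called. The median log2 difference was 4.41 for class II and 3.998 for class I members. These differences depend on how the tissues are scaled: without TMM factors the median over all genes moved by -0.96, to -1.57, that of the members was 1.94, and 31 were called higher and 4 lower (Ifit2, Ifit3b, Oasl2 and Xaf1). Stat2, Gbp2 and Rtp4 lost their call there, and Stat2 also with RLE factors and with DESeq2. Iigp1, a GTPase that attacks the vacuoles of intracellular pathogens, had a log2 difference of 7.54 ± 0.63 (SE), although it was listed at 0 in 2 brain libraries. H2-K1, a class I heavy chain, followed at 6.38 ± 0.13, and Bst2 (tetherin), which holds budding viruses on the cell surface, at 6.22 ± 0.09. The 4 members with the smallest p were B2m (5.61 ± 0.06), Bst2, H2-D1 (3.87 ± 0.06) and Ifi35 (4.31 ± 0.08), with adjusted p between 3.83e-18 and 9.85e-16.

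Per length, the authors' FPKM values put B2m first of the 39 in liver and in brain. B2m had 1529 ± 193 FPKM in liver and 59.5 ± 3.69 FPKM in brain (SD, n = 12 each). H2-K1 followed in liver at 551 ± 58.7 FPKM and H2-D1 at 252 ± 55.5 FPKM, ranges of 469 to 680 and 175 to 348 FPKM that do not overlap. In brain H2-D1 was second at 32.7 ± 3.15 FPKM and H2-K1 ranked 4 at 12.9 ± 3.28 FPKM. Bst2 had 116 ± 22.7 FPKM in liver and 2.93 ± 0.46 FPKM in brain. At the low end, Ifi44 had 0.387 ± 0.199 FPKM in liver and 0.128 ± 0.0282 FPKM in brain. The mean FPKM of 5 members was lower in liver: Ifit2, Ifit3b, Oasl2, Xaf1 and Ifit3. Ifit2, which binds foreign RNA, had 0.487 ± 0.362 FPKM in liver and 2.89 ± 0.176 FPKM in brain, with a fitted log2 difference of -1.87 ± 0.13 (adjusted p = 2.43e-09). The ratio of its mean FPKM is -2.57 on the log2 scale, and over the 39 members the fitted difference lay above the log2 ratio of mean FPKM by a median of 0.90. It ranked 38 of 39 in liver and 11 of 39 in brain. Ifit3b had 1.12 ± 0.484 FPKM in liver and 2.68 ± 0.668 FPKM in brain. Oasl2, Xaf1, Ifit3 and Ifit3b were not called between tissues with TMM scaling, with adjusted p from 0.0966 to 0.600. For Ifit3 the fitted log2 difference was 0.78 ± 0.51. This gene was listed at 0 in liver db/+ brazzein replicate 1, against 15.6 CPM in replicate 2.

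**Figure D1:**
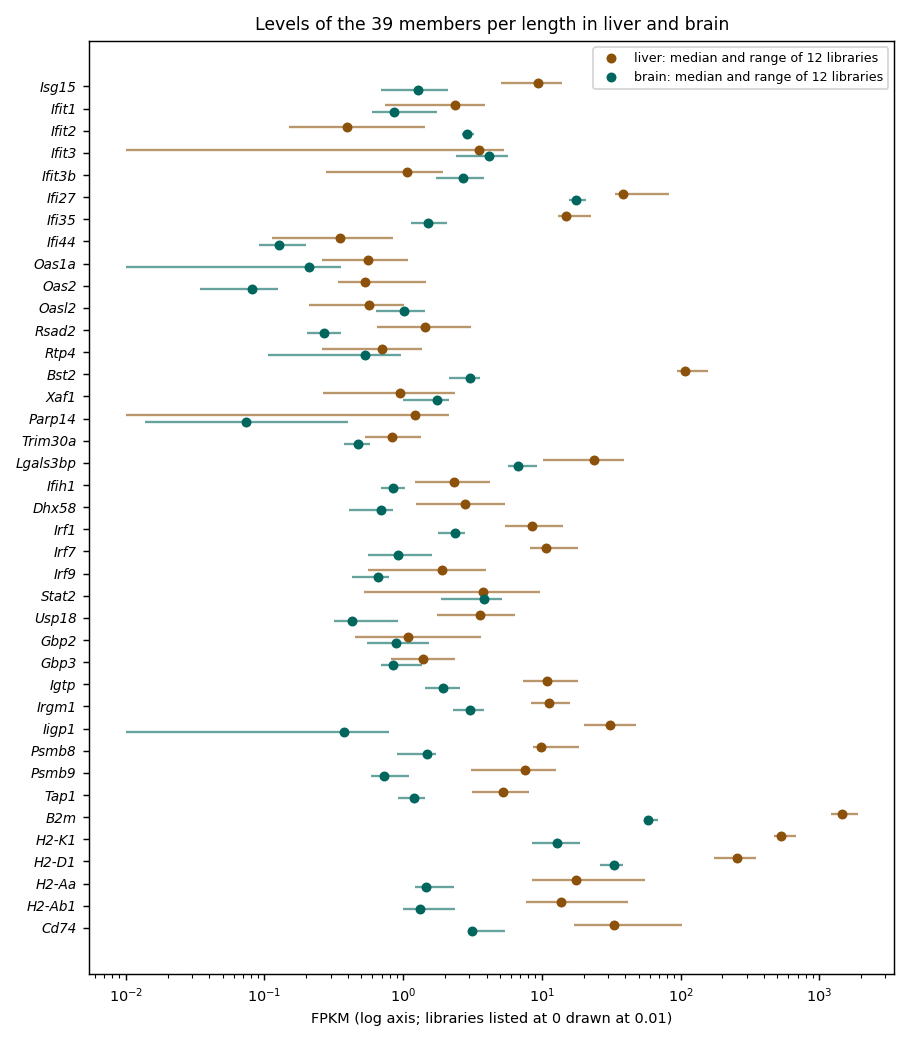
Level of each member per transcript length, in FPKM on a log axis, with the median (point) and range (line) of the 12 liver and 12 brain libraries. B2m stands at 1457 FPKM in liver and 58.2 FPKM in brain (medians), and Ifit2 is the member called lower in liver with TMM scaling (4 were without it).

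In liver, db/db mice had lower Iigp1, Ifi27 and Stat2 and higher Lgals3bp, Ifit2 and H2-D1 than db/+ mice. Parp14 was also called lower over drinks, a call that rested on the near-0 db/db brazzein livers. Over drinks, 7 of 39 members were called, against 15.2% of all 19352 genes tested. 3 were higher in db/db (7.91% of all genes were) and 4 were lower (7.27% of all genes were). The members' median log2 difference was -0.08, against -0.03 over all genes. The count was 4 without db/db sucrose replicate 2, also 4 without db/db water replicate 2, and 11 without db/+ brazzein replicate 2. DESeq2 called 10, a replicate block gave 8, and leaving out members listed near 0 gave 6. By role, the antiviral effectors had 2 members higher and 2 lower of 18, the sensors and regulators 0 and 1 of 7, the GTPases 0 and 1 of 5, class I presentation 1 and 0 of 6, and class II presentation 0 and 0 of 3. In these bulk tissues, fewer cells of a type and less RNA per cell cannot be told apart.

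**Figure D2:**
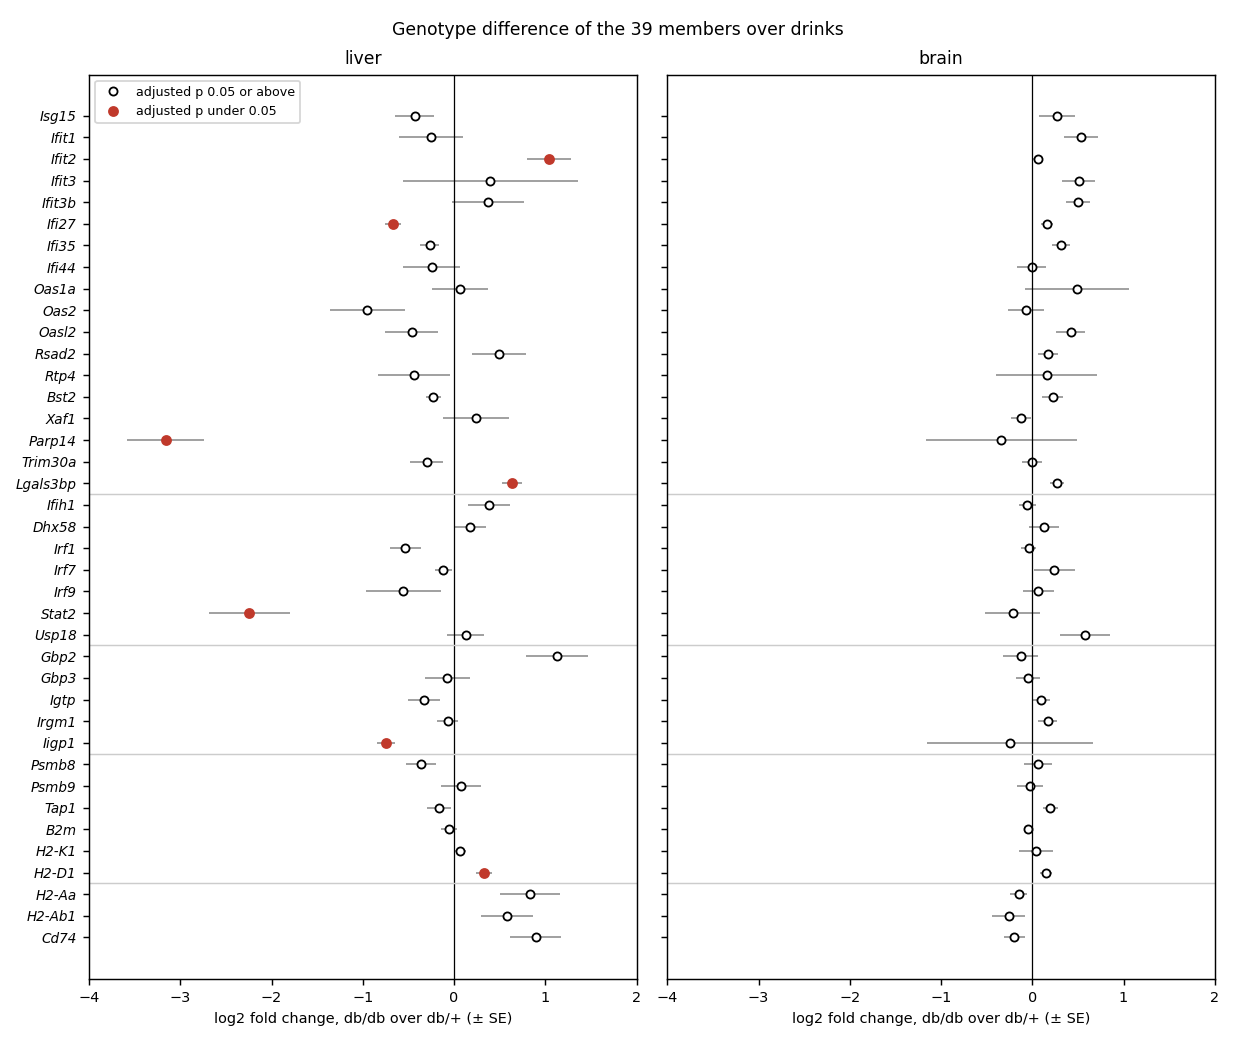
Log2 fold change of db/db over db/+ across drinks for each member in liver (left) and brain (right), with the SE as a line and members with adjusted p under 0.05 in red. In liver 3 members were called higher and 4 lower, and in brain 0 were called.

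Ifi27, a small interferon-induced membrane protein, was lower in db/db livers. It had 39.4, 43.8 and 47.2 CPM (lowest, median, highest) in the 6 db/db livers, against 51.4, 62.0 and 106 CPM in the 6 db/+ livers, and the groups did not overlap. The log2 difference was -0.67 ± 0.09 (adjusted p = 0.00374), and Ifi27 kept its call under all 17 alternatives. The difference was widest on sucrose, where the db/+ livers had 96.5 and 106 CPM. On brazzein Ifi27 had 43.5 and 42.2 CPM in db/db livers, against 53.1 and 59.7 CPM in db/+ livers. On water it had 44.2 and 47.2 CPM, against 51.4 and 64.4 CPM. Iigp1 had 83.8, 101 and 125 CPM in db/db livers, against 131, 174 and 228 CPM in db/+ livers. These groups did not overlap either, with a log2 difference of -0.75 ± 0.10 (adjusted p = 0.00345), called under all 17 alternatives. Lgals3bp, a secreted glycoprotein that binds galectin-3, was higher in db/db livers, with 52.8, 70.5 and 96.8 CPM, against 32.8, 42.7 and 67.8 CPM in db/+ livers. The overlap came from the db/+ sucrose livers, at 67.8 and 65.3 CPM. Its log2 difference was 0.64 ± 0.11 (adjusted p = 0.00910), called under all 17 alternatives.

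Stat2, the subunit of the type I interferon complex that carries its activation domain, had 1.55 and 3.96 CPM in db/db brazzein livers, 5.88 and 5.92 CPM in db/db sucrose livers and 24.9 and 10.6 CPM in db/db water livers. In db/+ livers it had 43.2 and 25.2 CPM on brazzein, 23.4 and 44.7 CPM on sucrose, and 42.1 and 10.7 CPM on water. 5 of 6 db/db livers lay below every db/+ liver, and db/db water replicate 1 lay within the db/+ range. Over drinks the log2 difference was -2.25 ± 0.44 (adjusted p = 0.0151), and the call was lost without db/db sucrose replicate 2 or db/db water replicate 2 (adjusted p up to 0.0543). Irf9 was not called, with 6.11 ± 2.87 CPM in db/db and 8.93 ± 3.67 CPM in db/+ livers (SD, n = 6 each, adjusted p = 0.400).

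Ifit2 was higher in db/db livers at a low level. It had 2.05, 2.69 and 6.49 CPM in db/db livers, against 0.914, 1.65 and 2.29 CPM in db/+ livers, and 5 of 6 db/db livers lay above all db/+ livers. The log2 difference was 1.04 ± 0.24 (adjusted p = 0.0256). That call was lost when any 1 of 7 libraries was left out, which were both db/db water livers, both db/+ water livers, db/db brazzein replicate 2, db/db sucrose replicate 2 and db/+ brazzein replicate 1 (adjusted p up to 0.0967 over all alternatives). H2-D1 had 669, 817 and 952 CPM in db/db livers, against 571, 627 and 749 CPM in db/+ livers, with 4 of 6 db/db livers above all db/+ livers. Its log2 difference of 0.33 ± 0.08 (adjusted p = 0.0358) was lost without any 1 of 9 libraries, and was kept without db/db brazzein replicate 1, db/db sucrose replicate 1 or db/+ brazzein replicate 2 (adjusted p up to 0.120). The other class I heavy chain, H2-K1, had 1246 ± 129 CPM in db/db and 1183 ± 42.7 CPM in db/+ livers (SD, n = 6 each, adjusted p = 0.480), and B2m had 1813 ± 265 CPM and 1871 ± 242 CPM (adjusted p = 0.728). The immunoproteasome subunits Psmb8 and Psmb9, which cut peptides for class I, and the peptide transporter Tap1 had adjusted p of 0.170, 0.854 and 0.441, with 5 of 6 db/db livers below all db/+ livers for Psmb8.

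**Figure D3:**
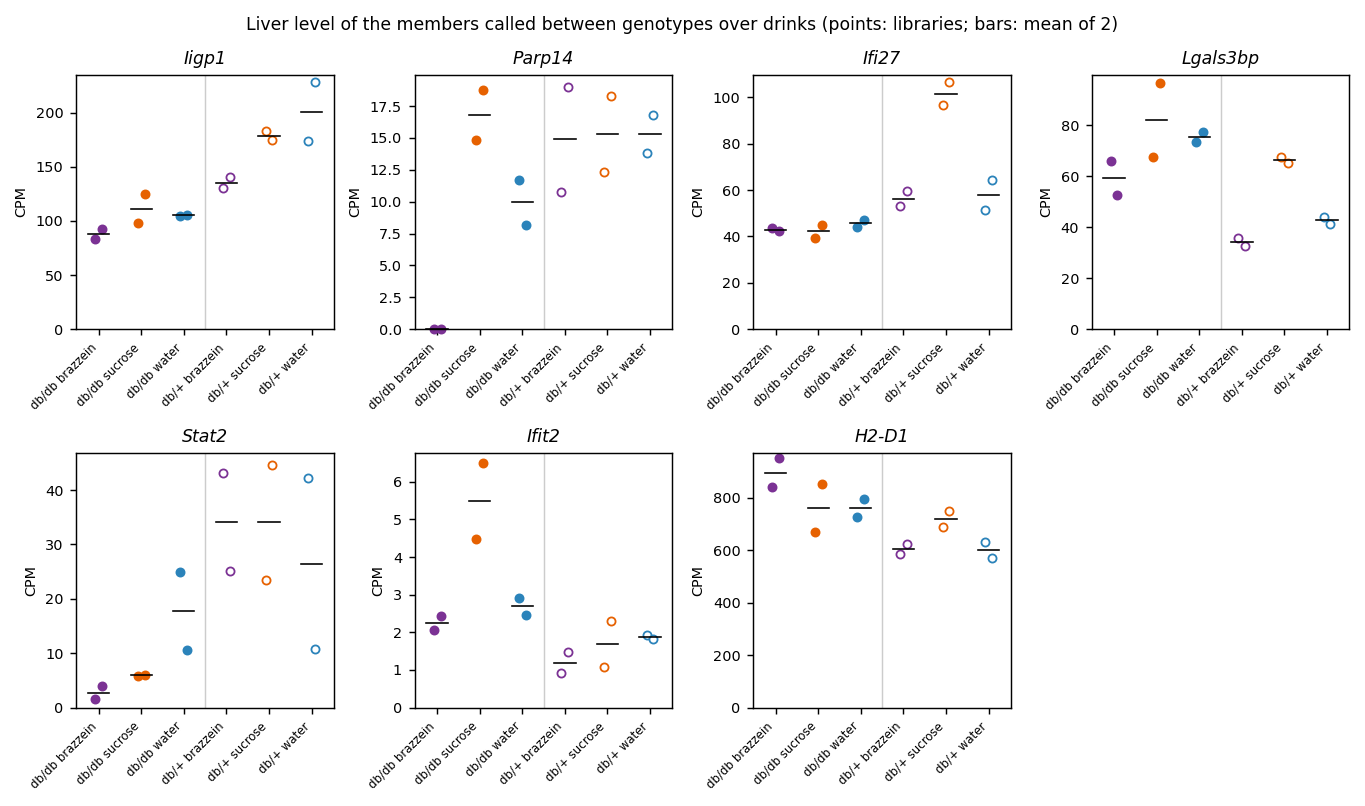
CPM of the 7 called members in every liver library, db/db groups (filled) left of db/+ groups (open), with a bar at the mean of each pair. Parp14 stands at 0.0527 and 0 CPM in the db/db brazzein livers and at 8.21 CPM or more in every other liver.

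Parp14, an ADP-ribosyltransferase induced by interferon, was near 0 in 1 group. Its estimated counts were 4 and 0 in the db/db brazzein livers, against 599 to 1505 in the other 10 livers. In CPM these were 0.0527 and 0 in db/db brazzein livers, 14.8 and 18.7 in db/db sucrose livers, and 11.7 and 8.21 in db/db water livers. The db/+ livers had 10.7 and 19.02 CPM on brazzein, 12.3 and 18.2 CPM on sucrose, and 13.8 and 16.8 CPM on water. On sucrose, db/db and db/+ livers differed by a log2 of 0.14 ± 0.63 (adjusted p = 0.953), and on water by -0.62 ± 0.64 (adjusted p = 0.647). The call over drinks (adjusted p = 0.00374) therefore rested on the brazzein groups, where the adjusted p was 0.00864. The authors' counts are estimates, and an exact 0 in such a table can be a failed estimate, so a fold fitted to these libraries is no measure of size. In the same brazzein groups Lepr had 1.45 and 1.63 CPM in db/db livers, against 1.90 and 2.77 CPM in db/+ livers. For Parp14, 1 liver library was listed at 0 in the FPKM values too. In brain Parp14 also varied widely, from 0.153 to 4.23 CPM in db/db and from 0.731 to 3.89 CPM in db/+.

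The other sensors and regulators were not called between genotypes in liver. Irf1, a transcription factor shared by both interferon types, had 15.7, 20.01 and 26.9 CPM in db/db livers, against 25.05, 27.6 and 44.5 CPM in db/+ livers, with 5 of 6 db/db livers below all db/+ livers (log2 -0.53 ± 0.17, adjusted p = 0.0766). Irf7, which amplifies type I interferon production, had 30.3 ± 3.27 CPM in db/db and 34.5 ± 12.4 CPM in db/+ livers (adjusted p = 0.421). Ifih1 (MDA5) and Dhx58 (LGP2), cytosolic RNA sensors, had adjusted p of 0.292 and 0.526, and Usp18, which removes Isg15 and damps the receptor, of 0.714. Among the GTPases, Gbp2 had 3.77, 6.12 and 10.8 CPM in db/db livers, against 1.79, 2.30 and 6.18 CPM in db/+ livers (log2 1.13 ± 0.34, adjusted p = 0.0629). Gbp3, Igtp and Irgm1 had adjusted p from 0.253 to 0.876. The 14 effectors that were not called, from Ifi44 (1.39 ± 0.481 CPM in db/db and 1.75 ± 1.02 CPM in db/+ livers) to Bst2 (117 ± 16.8 CPM and 139 ± 29.5 CPM), had adjusted p from 0.114 to 0.923. Of these, Isg15, the ubiquitin-like modifier, had 7.91 ± 1.49 CPM in db/db and 10.8 ± 3.18 CPM in db/+ livers (adjusted p = 0.211).

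All 3 class II members had higher means over drinks in db/db livers, but edgeR called 0 of them and DESeq2 called 1 (Cd74). At an unadjusted p under 0.05 by edgeR, 2 passed (Cd74 and H2-Aa), a limit passed by 31.6% of all genes and by 13 of the 39 members. Cd74, the invariant chain that guides class II molecules, had 58.9, 75.2 and 157 CPM in db/db livers, against 32.02, 40.2 and 82.2 CPM in db/+ livers (log2 0.90 ± 0.28, adjusted p = 0.0675). H2-Aa and H2-Ab1, the chains of the class II molecule, had log2 differences of 0.83 ± 0.33 (adjusted p = 0.125) and 0.58 ± 0.29 (adjusted p = 0.209). The highest values of all 3 were in db/db sucrose replicate 2 and db/db brazzein replicate 2. By drink, their median log2 difference was 1.29 on brazzein, 0.95 on sucrose and 0.09 on water. On water the fitted difference was above 0 for 2 members and below 0 for 1. Their summed CPM there was 103 and 111 in db/db livers, against 69.8 and 117 in db/+ livers. The 13 Kupffer cell and macrophage markers summed to 240 to 507 CPM in db/db livers and to 108 to 466 CPM in db/+ livers, all 13 were above 0, and 4 were called higher (Cd5l, C1qb, Lyz2 and Cd68), 0 lower. Beside this and the next marker counts stand 7.91% of all genes called higher and 7.27% called lower. The monocyte and neutrophil markers summed to 6.54 to 15.1 CPM in db/db livers and to 2.20 to 6.495 CPM in db/+ livers, with 3 of 7 tested called higher (S100a9, Ly6c2 and Ccr2). The B cell and plasma cell markers summed to 5.78 to 20.2 CPM in db/db livers and to 10.7 to 28.5 CPM in db/+ livers, and 0 of 8 were called. The dendritic cell markers summed to 6.75 to 11.6 CPM in db/db livers and to 7.89 to 16.2 CPM in db/+ livers, with 1 of 8 called higher (Itgax) and 2 lower (Xcr1 and Ccr9). The border macrophage list is named for a brain cell type. In liver its markers summed to 40.1 to 68.7 CPM in db/db and to 21.9 to 37.8 CPM in db/+, sums that did not overlap. Of the 6, 3 were called higher (F13a1, Lyve1 and Pf4). Endothelial markers summed to 57.7 to 122 CPM in db/db livers and to 37.5 to 106 CPM in db/+ livers. Their medians were 63.8 CPM in db/db and 86.6 CPM in db/+ livers. For cholangiocyte markers the medians were 52.0 CPM in db/db and 34.1 CPM in db/+ livers. The erythroid markers summed to 1101 to 3708 CPM in db/db livers and to 659 to 1214 CPM in db/+ livers. The T and NK cell markers summed to 3.55 to 10.4 CPM in db/db livers and to 4.22 to 8.17 CPM in db/+ livers. Their highest sums were 10.4 CPM in db/db sucrose replicate 2 and 10.1 CPM in db/db brazzein replicate 2. The part of these cells in the class II values was not tested.

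**Figure D4:**
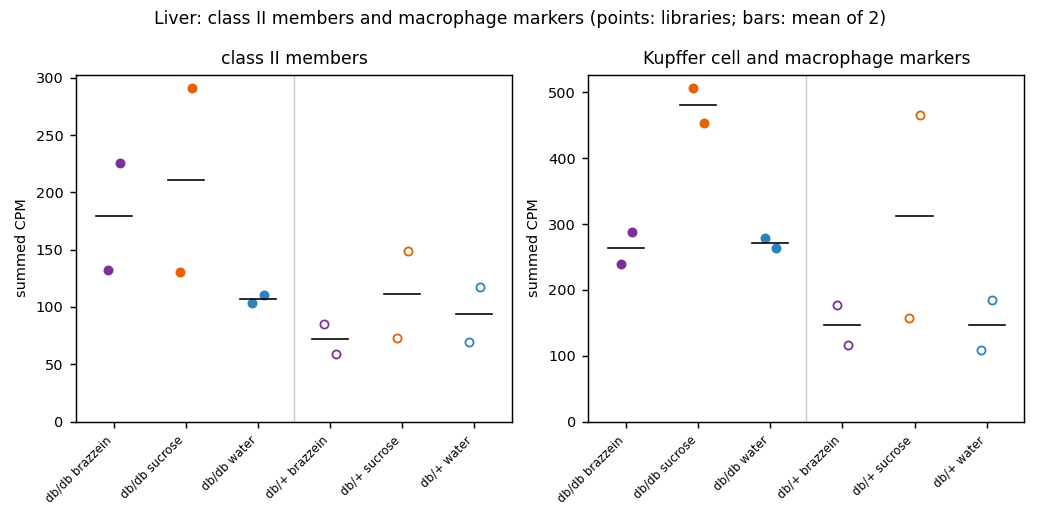
Summed CPM of the 3 class II members (left) and of the 13 Kupffer cell and macrophage markers (right) in every liver library, with a bar at the mean of each pair. Class II sums ran from 103 to 291 CPM in db/db livers and from 59.2 to 149 CPM in db/+ livers.

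In lists of related genes of the pathway, 17 of 135 tested were called between genotypes in liver (12.6%, against 15.2% of all genes). None of the 10 interferon genes searched reached the filter on low counts. 6 of them, Ifnb1 among them, were listed at 0 in all 24 libraries, and the highest estimated count of any was 14. The lists were chosen with these data known and overlap no member. Of 15 genes of receptors and JAK-STAT signalling, 1 was higher and 1 lower in db/db livers, where 7.91% of all genes were higher and 7.27% lower. The type I receptor chain Ifnar2 had 61.9 ± 8.23 CPM in db/db and 85.1 ± 4.11 CPM in db/+ livers (SD, n = 6 each, adjusted p = 0.00541), and the gamma receptor chain Ifngr2 24.9 ± 2.08 CPM and 14.5 ± 3.06 CPM (adjusted p = 0.0152, up to 0.0521 over alternatives). Of 18 nucleic acid sensing genes tested, 0 were higher and 2 lower. Irf3, the factor that starts interferon transcription, had 51.4 ± 5.34 CPM in db/db and 86.0 ± 8.77 CPM in db/+ livers (adjusted p = 0.00156), and the adaptor Myd88 15.2 ± 1.26 CPM and 21.6 ± 3.56 CPM (adjusted p = 0.0239, up to 0.0787 with a library left out).

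The shares of all genes to set beside the next counts are the same 7.91% higher and 7.27% lower. Of 22 other class I genes, 1 was higher and 3 lower in db/db livers. H2-Q10, a liver-secreted class I molecule, had 3569 ± 497 CPM in db/db and 1999.7 ± 170.1 CPM in db/+ livers (adjusted p = 0.000712). Lower were H2-Q7, another class I molecule, and the peptide-loading chaperones Pdia3 and Calr, with log2 differences from -0.71 to -0.70 and adjusted p from 0.0133 to 0.0177. Of 17 alternatives, Pdia3 lost its call in 2, Calr in 4, and H2-Q7 and H2-Q10 in 0. Of 16 other class II genes, 3 were higher and 0 lower: Ifi30, a lysosomal reductase (log2 1.56 ± 0.30, adjusted p = 0.0140), the protease Ctss (1.34 ± 0.29, adjusted p = 0.0212) and the peptide exchanger H2-DMb1 (1.16 ± 0.30, adjusted p = 0.0364). Ifi30 kept its call under all 17 alternatives, whereas Ctss lost it in 4 and H2-DMb1 in 11. Of 64 other interferon-stimulated genes tested, 4 were higher and 2 lower. The lower ones were Oas1b (log2 -1.43 ± 0.23) and Rnf213 (-1.42 ± 0.23), and higher ones included Shisa5 (0.49 ± 0.10) and Oasl1 (0.87 ± 0.18), with adjusted p from 0.00687 to 0.0196. Of 17 alternatives, Shisa5 lost its call in 6, Oasl1 in 5, and Oas1b and Rnf213 in 0. The median macrophage marker sum was 284 CPM in db/db livers and 167 CPM in db/+ livers, and its part in the values of Ifi30, Ctss and H2-DMb1 was not tested. In brain, edgeR called 0 of 131 genes of these lists tested over drinks, with 11 above and 7 below at an unadjusted p under 0.05, which is 13.7% against 13.8% of all genes.

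Within single drinks, edgeR called 1 liver member between genotypes each time, whereas DESeq2 called 5 on brazzein, 7 on sucrose and 2 on water. On brazzein it was Parp14 (1.58% of all genes were called), on sucrose Ifi27 (0.868%) and on water Iigp1 (1.51%). On sucrose, Ifi27 had 39.4 and 45.04 CPM in db/db livers, against 96.5 and 106 CPM in db/+ livers (log2 -1.27 ± 0.16, adjusted p = 0.0209). That call was lost without any 1 of 8 libraries, all but those of db/+ brazzein and db/+ water, with adjusted p up to 0.117. On water, Iigp1 had 105 and 106 CPM in db/db livers, against 174 and 228 CPM in db/+ livers (log2 -0.94 ± 0.17, adjusted p = 0.0428). It was lost without any 1 of 9 libraries, all but both db/+ brazzein livers and db/+ water replicate 1, with adjusted p up to 0.254.

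By edgeR, drinks called no liver member other than Parp14. It was lower on brazzein than on sucrose over genotypes (0.145% of all genes were called) and in db/db mice (0.16%), and lower on brazzein than on water in db/db mice (0.119%). It was also called for a difference between genotypes in brazzein against sucrose (0.0672%, adjusted p = 0.0496), a call lost without any 1 of 8 libraries, the sucrose and water livers of both genotypes (adjusted p up to 0.163). The call against water in db/db was lost without any of the 4 db/db sucrose and water livers (adjusted p up to 0.0627), and that over genotypes without any of the 8 sucrose and water livers (adjusted p up to 0.0923). At an unadjusted p under 0.05, brazzein against sucrose over genotypes had 0 members above and 10 below, beside 14.7% of all genes. The counts were 2 and 3 within db/db (14.7%) and 7 and 1 for the difference between genotypes (10.3%). Against water within db/db they were 1 and 2 (8.57%). DESeq2 called 5, 2, 3 and 2 members in these comparisons.

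In the other 8 of 12 liver drink comparisons edgeR called 0 members. In brazzein against sucrose within db/+ (0.0207% of all genes called), 0 members were above and 11 below at an unadjusted p under 0.05, a limit that 8.75% of all genes passed, and DESeq2 called 4. In brazzein against water the counts at that limit were 1 and 3 over genotypes, 0 and 1 within db/+, and 0 and 2 for the difference between genotypes, beside 9.43%, 6.06% and 6.22% of all genes. EdgeR's adjusted calls there took 0.0723%, 0.00517% and 0.0672% of all genes, and DESeq2 called 1, 0 and 1 members. The members with the smallest p were Irf7 (log2 -0.94 ± 0.16, adjusted p = 0.222) in the first of these and Iigp1 in brazzein against water over genotypes after Parp14 (-0.41 ± 0.12, adjusted p = 0.363) and within db/+ (-0.57 ± 0.17, adjusted p = 0.786). In sucrose against water the counts at the unadjusted limit were 5 and 0 over genotypes, 1 and 0 within db/db, 6 and 0 within db/+, and 0 and 3 for the difference between genotypes, beside 5.88%, 4.27%, 5.98% and 4.97% of all genes. EdgeR's adjusted calls there took 0.0155%, 0.00517%, 0.0155% and 0.0155% of all genes, and DESeq2 called 2, 0, 2 and 1 members.

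The db/+ sucrose livers stood out for 5 effectors and regulators, a pattern noticed after the values were seen. Irf7 had 48.7 and 52.4 CPM in db/+ sucrose livers, against 27.4 and 26.3 CPM in db/+ water livers (log2 0.91 ± 0.16, adjusted p = 0.415 by edgeR and 0.000143 by DESeq2). Ifi27 had 96.5 and 106 CPM in db/+ sucrose livers, against 51.4 and 64.4 CPM in db/+ water livers (log2 0.81 ± 0.15, adjusted p = 0.468 by edgeR and 0.00158 by DESeq2). Isg15, Ifi27, Bst2, Dhx58 and Irf7 had both db/+ sucrose libraries above the other 10 livers, 5 of 39 members against 2.33% of all genes tested. The same count was 1 of 39 (Ifit2) for db/db sucrose, against 4.44% of all genes. It was 0 for db/db brazzein (4.2%), db/db water (1.9%), db/+ brazzein (1.86%) and db/+ water (3.5%). Lepr was also high in the db/+ sucrose livers, at 13.97 and 18.9 CPM, against 1.90 to 6.65 CPM in the other 4 db/+ livers. Within db/db, Irf7 had 27.9 and 36.4 CPM on sucrose, against 30.8 and 30.4 CPM on water. The difference between genotypes in sucrose against water was -0.84 ± 0.23 for Irf7 (adjusted p = 0.915 by edgeR and 0.102 by DESeq2) and -0.92 ± 0.22 for Ifi27 (adjusted p = 0.878 by edgeR and 0.0444 by DESeq2).

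**Figure D5:**
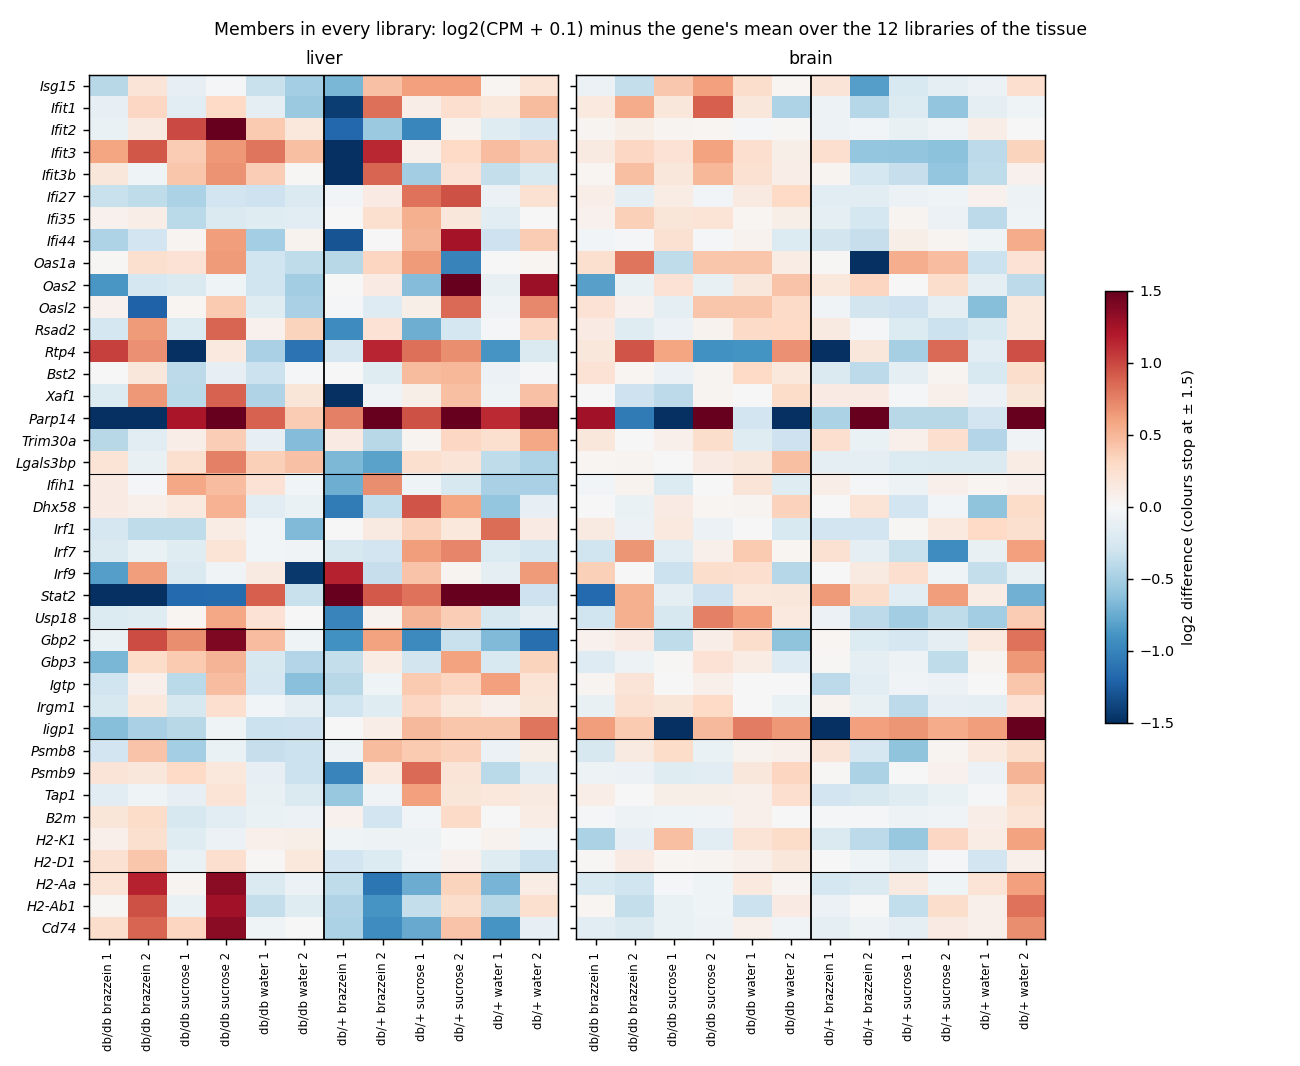
Each member in each library as log2(CPM + 0.1) minus the gene's mean over the 12 libraries of its tissue (red above, blue below, colours stop at 1.5). Both db/+ sucrose livers are red for Isg15, Ifi27, Bst2, Dhx58 and Irf7, and Parp14 is blue in both db/db brazzein livers.

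In brain, edgeR called 0 of 39 members in all 16 comparisons. Over drinks, db/db against db/+ called 0.00846% of all 23653 genes, and 9 members were above and 0 below at an unadjusted p under 0.05, with a members' median log2 of 0.07 against -0.00 over all genes. At the same unadjusted limit 13.8% of all genes passed in either direction. DESeq2 called 2, Ifit3b and Lgals3bp. Ifit3b had 7.73, 8.73 and 10.8 CPM in db/db brains, against 5.03, 6.11 and 7.94 CPM in db/+ brains, with 5 of 6 db/db brains above all db/+ brains (log2 0.50 ± 0.13, edgeR adjusted p = 0.183). Lgals3bp had 21.7, 23.1 and 29.8 CPM in db/db brains, against 18.7, 19.3 and 23.6 CPM in db/+ brains (log2 0.27 ± 0.08, adjusted p = 0.202). Ifit3, the near-identical neighbour of Ifit3b, had 13.3 ± 1.80 CPM and 9.48 ± 3.13 CPM (adjusted p = 0.275).

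Between genotypes on single drinks in brain, the shares of all genes called were 0% on brazzein, 0% on sucrose and 0.00846% on water. Ifi35 came first on brazzein (log2 0.44 ± 0.17, adjusted p = 0.557), with 4 members at an unadjusted p under 0.05. Ifit3b came first on sucrose (0.82 ± 0.23, adjusted p = 0.369), also with 4, and Lgals3bp on water (0.36 ± 0.13, adjusted p = 0.709), with 2. At that limit 8.15% of all genes passed on brazzein, 9.32% on sucrose and 6.79% on water. Of the 12 brain drink comparisons, brazzein against sucrose within db/db called 0.00846% of all genes, and the other 11 called 0%. Between 0 and 8 members passed an unadjusted p of 0.05 in them, a limit passed by 3.18% to 7.20% of all genes, and DESeq2 called 0. H2-Aa was the member with the smallest p in brazzein against water over genotypes (log2 -0.53 ± 0.12, adjusted p = 0.823). It had 2.09 and 1.99 CPM in db/db brazzein brains and 2.05 and 2.11 CPM in db/+ brazzein brains, against 2.75 and 2.55 CPM in db/db water brains and 2.87 and 3.83 CPM in db/+ water brains. The db/+ water replicate 2 brain held the highest value of all 3 class II members, Gbp2, Gbp3, Igtp, B2m, H2-K1, Psmb9 and Tap1 among brain libraries. It was also highest for Iigp1, Ifi44 and Rtp4. The share of all genes that were highest in this library was not counted.

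The genotype difference itself differed between liver and brain for 5 members, 2 higher and 3 lower in liver, against 9.75% of all genes (5.41% higher, 4.34% lower). Ifi27 fell in db/db livers while its brain level was 25.3 ± 2.67 CPM in db/db and 22.6 ± 1.34 CPM in db/+, and the difference between tissues was -0.82 ± 0.11 (adjusted p = 0.000478), called under all 29 alternatives. Ifi35 had 27.1 ± 3.55 CPM in db/db and 32.6 ± 5.74 CPM in db/+ livers, and 3.27 ± 0.293 CPM in db/db and 2.63 ± 0.289 CPM in db/+ brains (difference -0.57 ± 0.14, adjusted p = 0.0200). Ifit2 gave 0.99 ± 0.25 (adjusted p = 0.0203), Stat2 -2.02 ± 0.56 (adjusted p = 0.0346) and Cd74 1.10 ± 0.32 (adjusted p = 0.0458). With 1 library left out, Ifi35 was lost in 3 of 24 cases (the replicate 2 brains of db/db brazzein, db/+ brazzein and db/+ sucrose), Ifit2 in 0, Stat2 in 16 and Cd74 in 18, and without TMM factors Ifi35 and Stat2 were lost (adjusted p = 0.0809 and 0.0521). Adjusted p over all alternatives ran up to 0.0809, 0.0761, 0.0841 and 0.0991 for these 4 members.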

How the data were processed

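Per the labels' protocols, TRIzol extracts went through poly(A) selection and the NEBNext Ultra II kit, which does not mark strand. Reads from the part where genes on opposite strands overlap, such as Psmb9 and Tap1, could therefore not be assigned by strand. The submitters' processing notes name bcl2fastq and GRCm39. No aligner, counter or annotation is named in what was used here. The deposited per-sample files hold whole expected counts (estimated counts per gene). The deposited series table holds coverage signal and, in further columns, FPKM, used here for checks and for levels per length. Tests used edgeR 4.0.16 under R 4.3.3 (quasi-likelihood fits after filterByExpr, TMM factors, fits of all groups of a tissue, or of both tissues for tissue contrasts), with p-values adjusted by Benjamini-Hochberg over all genes and a threshold of 0.05. The fits were tested on simulated data. CPM use TMM-scaled library sizes. Each count was repeated with DESeq2 1.42.0, with RLE factors, unfiltered, with a replicate block and without each library in turn, plus 3 settings added after the data were seen: leaving out the 2 livers or brains least like the others, leaving out members listed near 0, and, between tissues, library sizes without TMM factors. The members, lists and tests were chosen with earlier results of these data known. Named genes are the called members (up to 4 per role), else up to 2 by smallest p, and up to 4 called genes per list. The p-values measure the spread between samples, which may be technical. No 2 libraries were identical. The per-sample headers of the db/+ brazzein livers exchange the replicate numbers within that group, and its 2 coverage columns were not used.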

Additional observations from a re-analysis of the deposited data

Results flagged for a closer look

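In 156 sets of 6 libraries (39 members, 2 tissues, 2 genotypes), 11 held a library far from its nearest neighbour relative to the range of the set (5 in liver, 6 in brain), where chance gives about 1 in 20. In liver these were Ifih1 (28.5 CPM) and Gbp2 (6.18 CPM) in db/+ brazzein replicate 2, Irf1 in db/+ water replicate 1 (44.5 CPM), Psmb8 in db/db brazzein replicate 2 (32.5 CPM) and Tap1 in db/db sucrose replicate 2 (24.9 CPM). In brain, Lgals3bp (23.6 CPM), Gbp2 (5.65 CPM), Gbp3 (5.03 CPM) and Cd74 (10.2 CPM) stood high in db/+ water replicate 2. Lgals3bp also stood high in db/db water replicate 2 (29.8 CPM), and Iigp1 was listed at 0 CPM in db/db sucrose replicate 1.

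Differences between groups passed for 6 contrasts. In liver, the response of Parp14 to brazzein against sucrose differed between db/db and db/+ (fitted log2 -9.14, a value set by the near-0 libraries and no measure of size). The genotype difference differed between liver and brain for Ifi27 (log2 -0.82), Ifi35 (-0.57), Ifit2 (0.99), Stat2 (-2.02) and Cd74 (1.10).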

How the results depend on the processing

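Counts of called members out of 39 moved with the tool and with single libraries. Of 1568 single-gene values under alternatives, 1392 kept their side of the threshold, 154 lost it, 22 gained it and 0 reversed in sign. These genes were picked as called, or by smallest p where no member was called, so a reversal was unlikely in advance. Those not called could not lose a call, so the 154 losses all belong to called genes. RLE factors left 33 of 34 counts at their value. In liver, DESeq2 called 5, 7 and 2 members between genotypes on brazzein, sucrose and water. For brazzein against sucrose it called 5 over genotypes, 2 in db/db, 4 in db/+ and 3 for the difference between genotypes. Its counts for brazzein against water were 1 over genotypes, 2 in db/db and 1 for the difference, and for sucrose against water 2 over genotypes, 2 in db/+ and 1 for the difference. It called 2 members between genotypes in brain and 8 for the difference between tissues. With no filter on low counts, 0 members were called on water, 1 in brazzein against water over genotypes, 1 for its difference between genotypes and 2 for the difference between tissues. Leaving out the 2 libraries least like the others gave 0 on water, and 1 each in those brazzein against water comparisons. Leaving out members listed near 0 gave 0 on brazzein, 0 in brazzein against sucrose (over genotypes, in db/db and for the difference) and 0 in brazzein against water in db/db. The differences between replicates correlated at most at 0.0921 between 2 groups of a tissue. Between liver and brain of the same genotype and drink they correlated at most at 0.0428. Such values show no common replicate effect, but cannot tell whether samples shared mice or batches. A replicate block gave 0 on water, 0 in brazzein against sucrose over genotypes and for its difference, 0 in brazzein against water in db/db and 2 for the difference between tissues. Without 1 library, the counts ran from 4 to 11 between genotypes over drinks, 1 to 2 on brazzein, 0 to 1 on sucrose and 0 to 1 on water. They ran from 0 to 2 for brazzein against sucrose over genotypes and its difference, 0 to 1 in db/+, 0 to 2 for brazzein against water over genotypes and its difference, 0 to 1 in db/db and in db/+, and 2 to 7 for the difference between tissues. The causes were not tested. With 2 libraries a group, the spread is estimated from few samples.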
